A study of Homo sapiens with 10 samples.

Results

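The genes described here are 10 regulators of mitochondrial biogenesis, measured in A375 cells, an established human melanoma line. They were chosen by gene symbol: the coactivators PPARGC1A, PPARGC1B and PPRC1, the DNA-binding factors ESRRA and NRF1, and the mitochondrial proteins TFAM, TFB1M, TFB2M, POLRMT and TWNK. Each had 1 probe set, so the 10 genes are 10 of 18569 probe sets and 10 of 17492 named genes on the array. Total RNA was hybridised to Clariom S human HT arrays, with 5 arrays of cells given doxycycline (2 µg/ml) during 4 days of culture and 5 arrays of control cells kept without it for the same time. The series title names Omomyc, a mutant MYC dimerisation domain that blocks MYC-driven transcription. The labels do not describe the construct, its promoter or whether the line is a clone, and no array analysed here is of doxycycline-treated cells without Omomyc. The effect of doxycycline itself therefore cannot be told apart from that of an induced transgene, and doxycycline is also known to inhibit translation in mitochondria. The arrays are labelled biological replicas, but nothing says that they came from separate cultures, so the p-values cover only the variation among these 10 arrays, and that variation may be technical.

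Mitochondria hold their own DNA, which encodes a few core respiratory chain subunits and the RNAs needed to translate them, while all other mitochondrial proteins come from the nucleus. The coactivators of the PGC-1 family bind nuclear factors such as NRF1 (nuclear respiratory factor 1) and ERR alpha, the product of ESRRA, and so raise transcription of respiratory genes. Among the genes these factors induce are those for the proteins that package, copy and transcribe mitochondrial DNA. In melanoma the lineage factor MITF is known to drive PPARGC1A, and tumours with high PPARGC1A rely more on respiration. MYC also binds the promoters of many nuclear genes for mitochondrial proteins.

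Doxycycline-treated cells had lower signal for 3 of the 10 regulators, and none was called higher. TFB1M, which methylates the RNA of the small mitochondrial ribosome subunit, was 1.51-fold lower. PPARGC1B, the coactivator PGC-1 beta, was 1.45-fold lower, and TFAM, the protein that coats mitochondrial DNA and starts its transcription, was 1.40-fold lower. The log2 fold changes of the other 7 genes lay between -0.25 for PPARGC1A and 0.25 for POLRMT and did not pass the test. A gene was called at an adjusted p under 0.05 in limma, with Benjamini-Hochberg adjustment over all probe sets. By that rule 38.1% of all probe sets were called in either direction, 17.2% lower and 20.9% higher. The 3 calls of 10 are a smaller share than the called share in either direction and a larger one than the share called lower, and with 10 genes this difference in share was not tested. No regulator was higher at an unadjusted p under 0.05 either, against 25.3% of all probe sets, nor in limma with a trended and robust spread. The median log2 fold change was -0.18 over the 10 genes and 0.04 over all probe sets. In bulk RNA, fewer cells expressing a gene and less of its RNA per cell cannot be told apart.

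**Figure D1:**
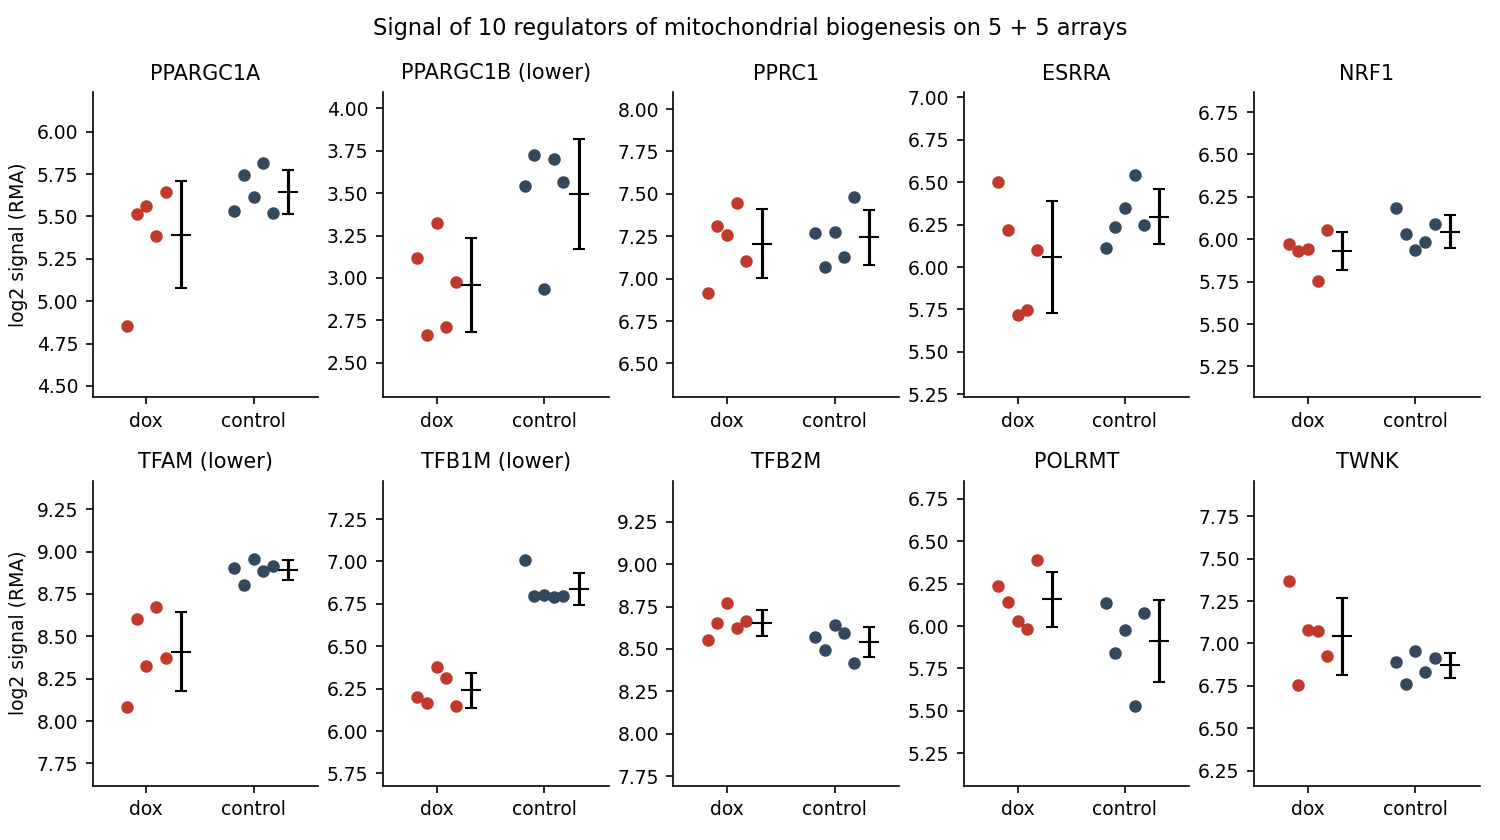
Log2 signal (RMA values) of the 10 regulators on 5 doxycycline arrays (left in each panel) and 5 control arrays (right). Points are arrays, and bars beside them are means with SD; every panel spans the same height in log2 units. The groups of TFB1M and TFAM do not overlap.

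RefSeq promoter sequences (GRCh38.p14) were at hand for 8 of the 10 genes, with 9 gene starts in all, since PPARGC1A has 2; NRF1 and TWNK have no entry. The 250 bases before each start were searched on both strands for the core that NRF1 binds (GCGC, then any base, then TGCGC), for a shorter run within it (GCATGCGC), for the MYC/MAX E-box (CACGTG), for the ERR element (AAGGTCA) and for the ETS core bound by GABP (CCGGAAG). The NRF1 core was found at 4 of the 9 starts, those of TFB1M, TFAM, POLRMT and ESRRA, and at 5.07% of 35116 human gene starts. These 4 promoters are printed because the genes that share the core include both called and uncalled ones, and that of TFB2M because it is the paralogue of TFB1M. The core is mostly G and C, and the 4 windows with it were 65.2% (POLRMT) to 78% (ESRRA) G and C. Windows without it ran from 44% to 70.8%, the ends being the 2 starts of PPARGC1A. The shares over all starts were not matched for G and C content, so they do not show enrichment. Capitals mark every match to any of the searched motifs, and positions are counted back from -1, the base before the annotated start.
TFB1M: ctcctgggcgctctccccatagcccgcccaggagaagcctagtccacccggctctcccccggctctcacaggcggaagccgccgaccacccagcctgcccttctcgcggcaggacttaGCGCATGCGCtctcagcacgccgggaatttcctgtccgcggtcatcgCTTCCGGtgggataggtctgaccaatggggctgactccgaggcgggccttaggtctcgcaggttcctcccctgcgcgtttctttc
TFAM: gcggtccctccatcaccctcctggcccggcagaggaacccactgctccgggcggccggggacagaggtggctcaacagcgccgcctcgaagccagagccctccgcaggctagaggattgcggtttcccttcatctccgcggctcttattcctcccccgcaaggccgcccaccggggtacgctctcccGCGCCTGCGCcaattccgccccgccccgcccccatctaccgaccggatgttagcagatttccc
POLRMT: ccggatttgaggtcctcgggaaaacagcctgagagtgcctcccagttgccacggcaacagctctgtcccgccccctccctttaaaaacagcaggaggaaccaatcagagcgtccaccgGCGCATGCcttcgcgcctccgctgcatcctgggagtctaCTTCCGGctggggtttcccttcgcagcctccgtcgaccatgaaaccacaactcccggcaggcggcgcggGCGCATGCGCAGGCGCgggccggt
ESRRA: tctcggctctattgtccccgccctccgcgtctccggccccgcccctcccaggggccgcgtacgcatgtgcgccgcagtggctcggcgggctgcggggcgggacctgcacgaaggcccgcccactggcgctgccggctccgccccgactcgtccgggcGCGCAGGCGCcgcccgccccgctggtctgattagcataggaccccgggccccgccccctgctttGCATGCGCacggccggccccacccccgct
TFB2M: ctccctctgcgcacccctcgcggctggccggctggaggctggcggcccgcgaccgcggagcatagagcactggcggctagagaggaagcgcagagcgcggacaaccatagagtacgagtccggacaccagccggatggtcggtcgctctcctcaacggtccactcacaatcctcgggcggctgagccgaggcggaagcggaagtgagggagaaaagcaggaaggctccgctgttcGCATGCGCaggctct

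The TFB1M window (chr6:155314485-155314734, minus strand) holds the NRF1 core at -132 to -123 and an ETS core, read on the other strand, at -85 to -79. In TFAM (chr10:58385160-58385409, plus strand) the NRF1 core lies at -63 to -54. POLRMT (chr19:633538-633787, minus strand) has 2 overlapping NRF1 cores, at -24 to -15 and -18 to -9, the shorter run alone at -132 to -125, and an ETS core at -93 to -87. The window of ESRRA (chr11:64305274-64305523, plus strand) has the NRF1 core at -93 to -84 and the shorter run at -29 to -22. TFB2M (chr1:246566262-246566511, minus strand) has the shorter run alone, at -15 to -8. The shorter run occurred at 4 of the 9 starts and at 2.63% of all starts, and overlaps the full core in TFB1M and POLRMT. The ETS core occurred at 2 of 9 starts and 8.52% of all. Only exact matches to its letters were counted, so the shorter CGGAAG, which the TFB2M window holds, is not marked. The E-box was found at 1 start, the upstream start of PPARGC1A (chr4:24472906-24473155, minus strand), at -123 to -118, against 6.34% of all starts. The ERR element was at none of the 9 and at 3.44% of all. No searched motif was in the windows of PPARGC1B and PPRC1 or at the other start of PPARGC1A. These are matches of letters and not measured binding. Of the 4 genes with the NRF1 core, TFB1M and TFAM were called lower, while POLRMT and ESRRA were not called.

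**Figure D2:**
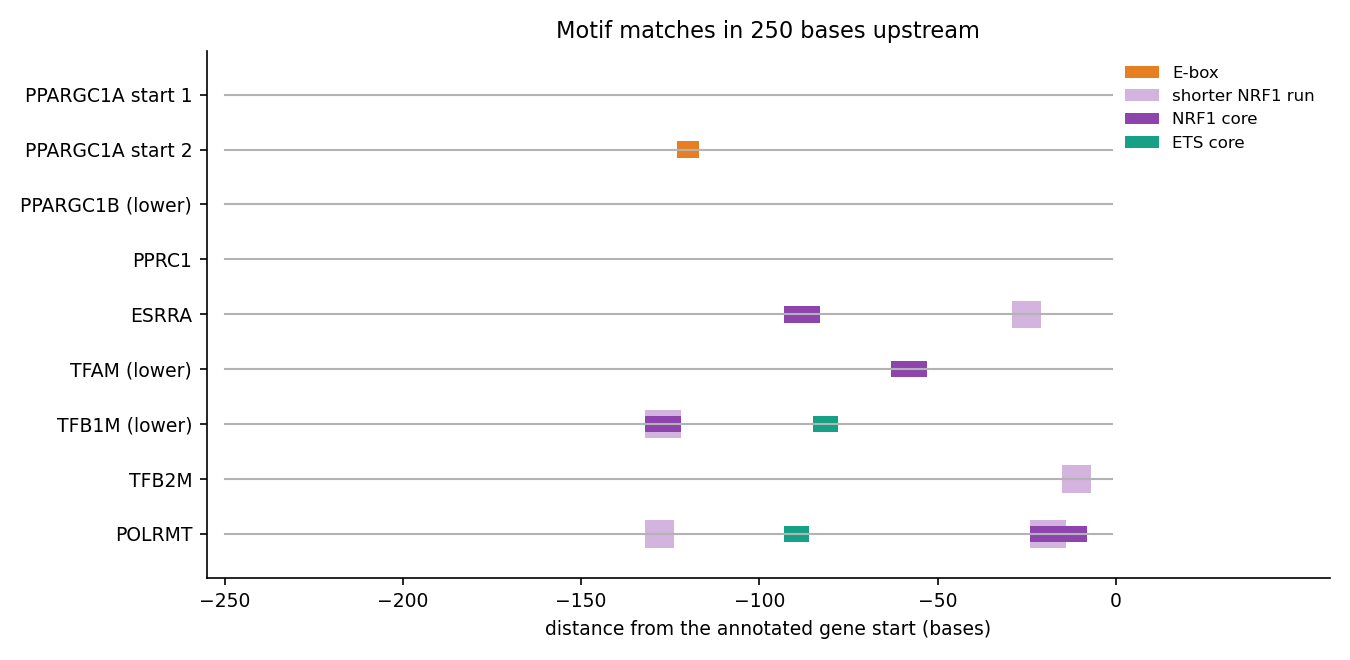
Positions of motif matches in the 250 bases before 9 annotated gene starts of 8 regulators (horizontal axis, bases from the start; 1 line per start). Dark purple marks the NRF1 core, light purple the shorter run within it, orange the E-box and green the ETS core; genes called lower are marked. The NRF1 core stands at the starts of ESRRA, TFAM, TFB1M and POLRMT.

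Among the coactivators, PPARGC1B alone was called. This gene encodes PGC-1 beta, which supports basal expression of respiratory genes and binds ERR alpha. Its log2 signal was 3.12, 2.67, 3.33, 2.71 and 2.97 on the doxycycline arrays, against 3.54, 3.73, 2.94, 3.70 and 3.57 on the control arrays. The groups overlapped through control array 3, which stood below its group; the other 4 control arrays all lay above every doxycycline array. The means were 2.96 ± 0.28 with doxycycline and 3.50 ± 0.32 in control (SD, n = 5 each), a log2 fold change of -0.54 ± 0.16 (SE, adjusted p = 0.0136). This signal is close to the first quartile of the arrays, 2.80 to 2.94, where background compresses differences. With weights for array quality the change was -0.41 and the call was lost (adjusted p = 0.0702).

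PPARGC1A encodes PGC-1 alpha, the inducible coactivator that gives the family its name. Its signal was 4.85, 5.51, 5.56, 5.39 and 5.65 on the doxycycline arrays, against 5.53, 5.74, 5.62, 5.81 and 5.52 in control. Doxycycline array 1 was the lowest of all 10, arrays 2 and 4 also lay below every control array, array 2 only just, and arrays 3 and 5 lay within the control range. The log2 fold change of -0.25 had a 95% interval of -0.53 to 0.03 (adjusted p = 0.157), and it was -0.12 without doxycycline array 1. MITF, its known activator in melanocytes, was higher in the same cells, at 8.33 ± 0.07 with doxycycline and 7.12 ± 0.07 in control (SD, n = 5 each; adjusted p = 8.34e-09).

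PPRC1, the serum-responsive coactivator PRC, which is tied to growth, had overlapping groups. It read 6.92, 7.31, 7.26, 7.44 and 7.10 with doxycycline, against 7.27, 7.07, 7.28, 7.13 and 7.48 in control. The log2 fold change was -0.04 with a 95% interval of -0.27 to 0.20, the closest to 0 of the 10 genes.

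Neither DNA-binding factor was called. ESRRA, the gene of the orphan nuclear receptor ERR alpha, had a signal of 6.50, 6.22, 5.72, 5.75 and 6.10 on the doxycycline arrays, against 6.11, 6.24, 6.35, 6.55 and 6.25 on the control arrays. Here 3 doxycycline arrays lay below all control arrays and array 1 lay among the highest. The log2 fold change was -0.24 (95% interval -0.54 to 0.06, adjusted p = 0.207). Without doxycycline array 1 it was -0.35 and passed the test (adjusted p = 0.0344), so this 1 array decided the call.

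NRF1, which binds GC-rich sites in respiratory gene promoters as a dimer, read 5.97, 5.93, 5.94, 5.75 and 6.06 with doxycycline, against 6.18, 6.03, 5.94, 5.99 and 6.09 in control. The ranges overlapped, and the log2 fold change of -0.11 had a 95% interval of -0.29 to 0.06 (adjusted p = 0.318).

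The mitochondrial proteins split. TFAM bends and compacts mitochondrial DNA and recruits the polymerase to its promoters. Its signal was 8.08, 8.60, 8.32, 8.67 and 8.37 on the doxycycline arrays, against 8.91, 8.80, 8.96, 8.89 and 8.92 on the control arrays. Every doxycycline array lay below every control array, and the doxycycline arrays were more spread, with an SD of 0.24 against 0.06 in control. The log2 fold change was -0.48 ± 0.11 (SE, adjusted p = 0.00184). TFAM was called lower in all 18 alternative fits, with log2 fold changes of -0.55 to -0.38. Its change in the main fit does not reach the fold threshold of 0.5, which is not among those fits.

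TFB1M descends from a bacterial RNA methyltransferase and modifies the 12S ribosomal RNA. It read 6.20, 6.16, 6.38, 6.31 and 6.15 with doxycycline, against 7.01, 6.79, 6.80, 6.79 and 6.80 in control. The groups were well apart: the highest doxycycline array was 6.38 and the lowest control array 6.79. The means were 6.24 ± 0.10 and 6.84 ± 0.10 (SD, n = 5 each, doxycycline and control), and the log2 fold change was -0.60 ± 0.08 (SE, adjusted p = 3.12e-05). It was called in all 18 alternative fits as well, at -0.63 to -0.56. TFB1M and TFAM were the 2 of 10 regulators whose groups did not overlap, and both were lower. Over all 18569 probe sets, 2533 (13.6%) did not overlap and were lower, and 2773 did not overlap and were higher. The difference in share was not tested.

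TFB2M is the paralogue of TFB1M that melts the promoter for the mitochondrial RNA polymerase. It read 8.55, 8.65, 8.77, 8.62 and 8.66 with doxycycline, against 8.57, 8.49, 8.64, 8.60 and 8.42 in control. These ranges overlapped, with a log2 fold change of 0.11 (95% interval -0.06 to 0.28, adjusted p = 0.309). POLRMT, the polymerase itself, which also makes replication primers, read 6.24, 6.14, 6.03, 5.98 and 6.39 with doxycycline, against 6.14, 5.84, 5.97, 5.53 and 6.07 in control. Its log2 fold change of 0.25 had a 95% interval of -0.01 to 0.50 (adjusted p = 0.122), and control array 4 was the lowest of the 10. TWNK encodes Twinkle, the helicase that unwinds mitochondrial DNA ahead of the polymerase. It read 7.37, 6.75, 7.08, 7.07 and 6.93 with doxycycline, against 6.89, 6.76, 6.96, 6.83 and 6.91 in control. Doxycycline array 1 stood above the rest and array 2 below all control arrays, and the log2 fold change was 0.17 (95% interval -0.05 to 0.39, adjusted p = 0.230).

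**Figure D3:**
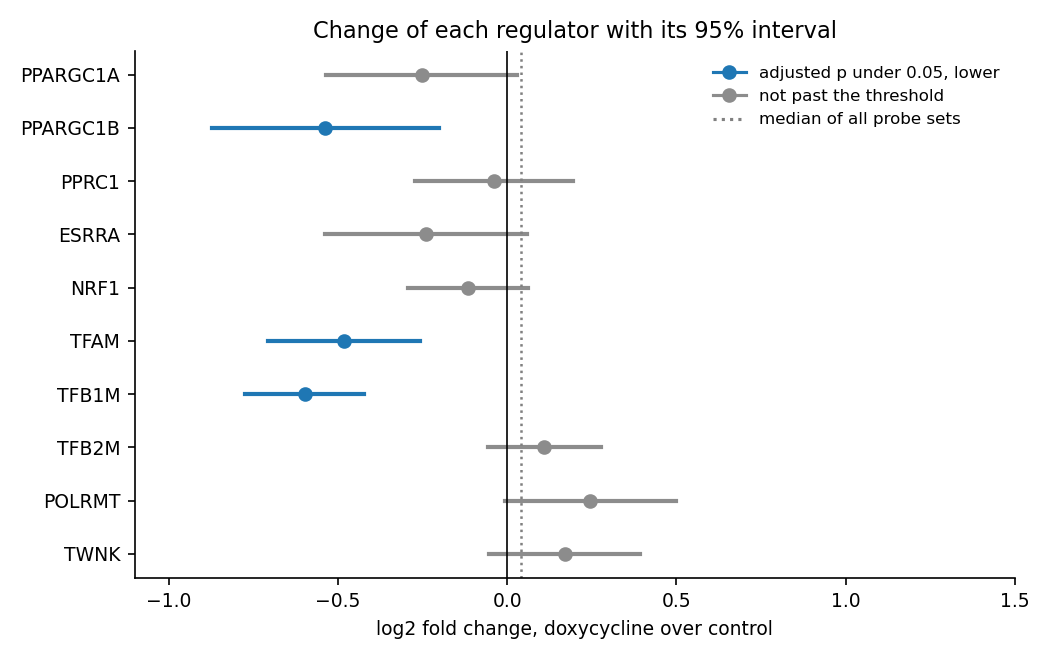
Log2 fold change of doxycycline over control for each regulator (points) with the 95% interval from limma (bars); blue genes passed the test and grey ones did not. The dotted line is the median of all probe sets, 0.04. PPARGC1B, TFAM and TFB1M lie left of 0 with their whole interval.

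Whether 2 regulators changed unequally was tested on their difference within each array, for 8 pairs of related genes. The test was a two-sided exact permutation test over the 10 arrays, which can give no p below 0.00794 with 5 arrays against 5, and p-values were adjusted over the 8 pairs. The log2 difference TFB2M minus TFB1M was 2.41 ± 0.09 with doxycycline and 1.71 ± 0.12 in control (SD, n = 5 each), a change of 0.71 (exact p = 0.00794, adjusted p = 0.0212). It was 2.31 to 2.52 on the doxycycline arrays and 1.56 to 1.84 on the control arrays, so the groups did not overlap. TFAM minus TFB2M was -0.24 ± 0.23 with doxycycline and 0.35 ± 0.08 in control, a change of -0.59 at the same exact p of 0.00794 (adjusted p = 0.0212). TFAM minus POLRMT was 2.25 ± 0.34 with doxycycline and 2.98 ± 0.23 in control, a change of -0.73 with that smallest exact p again (adjusted p = 0.0212). TFAM thus changed unequally to both other components of the transcription machinery, TFB2M and POLRMT.

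The other 5 pairs did not pass. The change was 0.28 for PPARGC1A minus PPARGC1B, -0.21 for PPARGC1A minus PPRC1 and -0.50 for PPARGC1B minus PPRC1. It was -0.12 for ESRRA minus NRF1 and -0.08 for TWNK minus POLRMT. Adjusted p-values of these pairs ran from 0.206 to 0.635 in the exact permutation test. The call for PPARGC1B beside none for PPARGC1A does not show that these coactivators changed unequally: their difference overlapped between the groups, at 1.74 to 2.85 with doxycycline and 1.95 to 2.68 in control.

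**Figure D4:**
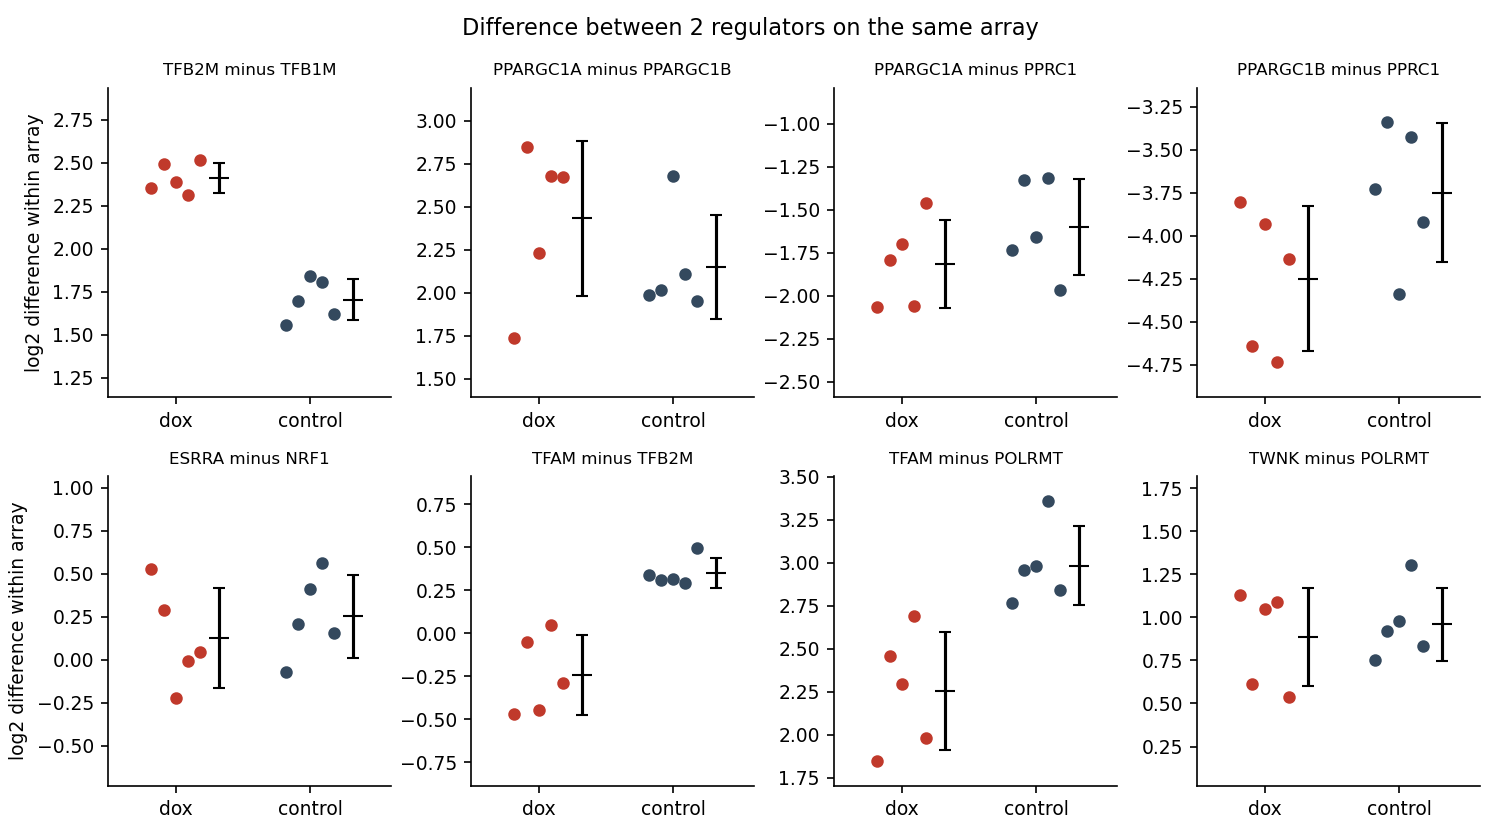
Difference in log2 signal between 2 regulators on the same array, for 8 pairs, on 5 doxycycline arrays (left) and 5 control arrays (right); bars are means with SD. The groups are apart for TFB2M minus TFB1M, TFAM minus TFB2M and TFAM minus POLRMT and overlap for the other 5 pairs.

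The genes whose centred log2 values lay closest to those of TFB1M over the 10 arrays were IFIT5, MRPS15, UBE2F-SCLY and SCMH1, at Euclidean distances of 0.20, 0.21, 0.21 and 0.23 log2 units. IFIT5 is an interferon-induced RNA-binding protein, MRPS15 a protein of the small mitochondrial ribosome subunit and SCMH1 a Polycomb protein. UBE2F-SCLY is a readthrough transcript whose probe set can share sequence with its parent genes. Their log2 fold changes were -0.58, -0.56, -0.56 and -0.63.

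Other genes of mitochondrial DNA replication and maintenance were mostly lower where they were called. In a list of 22 such genes, 12 were lower and 2 higher, with a median log2 fold change of -0.37 against 0.04 over all probe sets. Of all probe sets, 17.2% were lower and 20.9% higher. The list holds nucleotide carriers beside proteins that act on the DNA, and some of the latter also act on nuclear DNA. SLC25A33, a pyrimidine nucleotide carrier of the inner membrane, fell to 4.21 with doxycycline, against 6.41 in control (log2 fold change -2.20 ± 0.13, SE, adjusted p = 7.28e-09). TOP1MT, the mitochondrial topoisomerase (-1.71), DNA2, a nuclease and helicase of nuclear and mitochondrial DNA (-0.79), and SSBP1, the single-strand binding protein of mitochondrial DNA (-0.63), fell too. The DNA2 signal with doxycycline, 2.68, lay under the first quartile of every array, so background limits its change. The 2 that rose were MPV17, an inner membrane protein needed to keep mitochondrial DNA (0.54), and SLC25A36, a second pyrimidine carrier (0.44). Of the replisome around the TWNK helicase, the polymerase gene POLG was lower (-0.37, adjusted p = 0.00633), and its accessory subunit gene POLG2 was at -0.02 (adjusted p = 0.918); both were named after their values were seen.

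Among genes of mitochondrial transcript elongation, termination and RNA processing 5 of 24 were lower and 2 higher, with a median log2 fold change of 0.00. The share lower was close to the 17.2% over all probe sets, of which 20.9% were higher. In either direction 29.2% of the list was called, against 38.1% of all probe sets. MTERF3, which restrains mitochondrial transcription, fell to 4.73 with doxycycline, against 6.03 in control (-1.30 ± 0.10, SE, adjusted p = 1.01e-07). GRSF1, an RNA-binding protein of mitochondrial RNA granules (-0.83), SLIRP, which stabilises mitochondrial messages (-0.57), MTRES1 (-0.44) and FASTKD1 (-0.30) fell as well; MTRES1 and FASTKD1 were named after their values were seen, and FASTKD1, at 2.71 with doxycycline, also lay under the first quartile. FASTK (0.68), needed for one of those messages, and MTERF2 (0.33) rose; MTERF2 missed the threshold without control array 3 (adjusted p = 0.0534), which left 1 gene higher.

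Partners and upstream regulators of the PGC-1 coactivators rose more often than they fell, with 12 of 32 higher and 3 lower and a median of 0.14. All probe sets had 20.9% higher and 17.2% lower. The list was not sorted by whether a gene raises or lowers coactivator activity, so its counts give no direction for that activity. KAT2B, an acetyltransferase, rose most (1.36 ± 0.10, SE, adjusted p = 4.26e-08), followed by MITF (1.21) and MEF2D, of a factor family that acts at the PPARGC1A promoter in muscle (0.69). Those that fell were PARP1, which competes with sirtuins for NAD (-1.30), and the AMP-activated kinase subunit genes PRKAB2 (-0.45) and PRKAA2 (-0.29). Subunits of this kinase were called in both directions: the other catalytic subunit gene, PRKAA1, rose (0.30, adjusted p = 0.00579), and PRKAB1 (0.22), PRKAG1 (-0.04) and PRKAG2 (0.01) did not pass the test; these were named after their values were seen. PRKAA2 was at an adjusted p of 0.0512 without both control array 3 and doxycycline array 1, a setting chosen after seeing the data.

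Other nuclear factors of respiratory gene promoters were higher in 9 of 14 cases and lower in 1, with a median of 0.35. Shares over all probe sets were 20.9% higher and 17.2% lower. ESRRG, the inducible relative of ESRRA, was 4.99 with doxycycline and 4.27 in control (0.72 ± 0.14, SE, adjusted p = 6.23e-04). THRB, a thyroid hormone receptor (0.66), and PPARG, a lipid-sensing receptor (0.60), rose too. The one that fell was NR1D1, the circadian repressor REV-ERB alpha (-1.29). GABPA, the ETS-domain subunit of GABP, was also higher (0.44, adjusted p = 6.46e-04) and was named after its values were seen.

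Textbook targets of PGC-1, NRF1 and ERR alpha went both ways, with 13 of 31 lower, 4 higher and a median of -0.16. SLC25A4, the ADP/ATP carrier, fell to 8.80 with doxycycline, against 9.83 in control (-1.02 ± 0.08, SE, adjusted p = 8.93e-08). IDH3A, a citric acid cycle enzyme (-0.996), and VDAC1, the outer membrane channel (-0.91), fell as well. PDK4, which shuts pyruvate out of the citric acid cycle and is a classic target of ERR alpha, rose instead (1.22 ± 0.10, SE, adjusted p = 1.48e-07). With it rose the fatty acid import genes CPT1B (0.60) and CPT1A (0.57) and the citric acid cycle gene OGDH (0.27), all named after their values were seen. Of the genes for proteins of the small mitochondrial ribosome subunit (MRPS), which holds the RNA that TFB1M methylates, 13 of 27 were lower and 3 higher. In the large subunit (MRPL) 22 of 47 were lower and 1 higher, and the medians were -0.22 for MRPS and -0.21 for MRPL genes, beside 17.2% lower, 20.9% higher and a median of 0.04 over all probe sets. Those that rose, named after their values were seen, were MRPS28 (0.57), MRPS14 (0.41), MRPS12 (0.30) and MRPL33 (0.33).

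Genes of mitochondrial fusion, fission and mitophagy were mixed, with 6 of 23 lower, 5 higher and a median of 0.02. The share higher was close to the 20.9% over all probe sets, of which 17.2% were lower. MTFP1, which promotes fission (-0.94), OPA1, which fuses inner membranes (-0.54), and the mitophagy receptor BNIP3 (-0.50) fell, whereas the related receptor BNIP3L rose (0.78). The other genes that rose were OPTN (0.33), SLC25A46 (0.27), MFN1 (0.26) and TAX1BP1 (0.21), named after their values were seen. The count of 5 was 3 without control array 1, 2 or 5 or doxycycline array 3, 4 or 5. The shares called in these 6 lists stand beside the 38.1% over all probe sets in either direction, and the lists were not tested as sets.

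**Figure D5:**
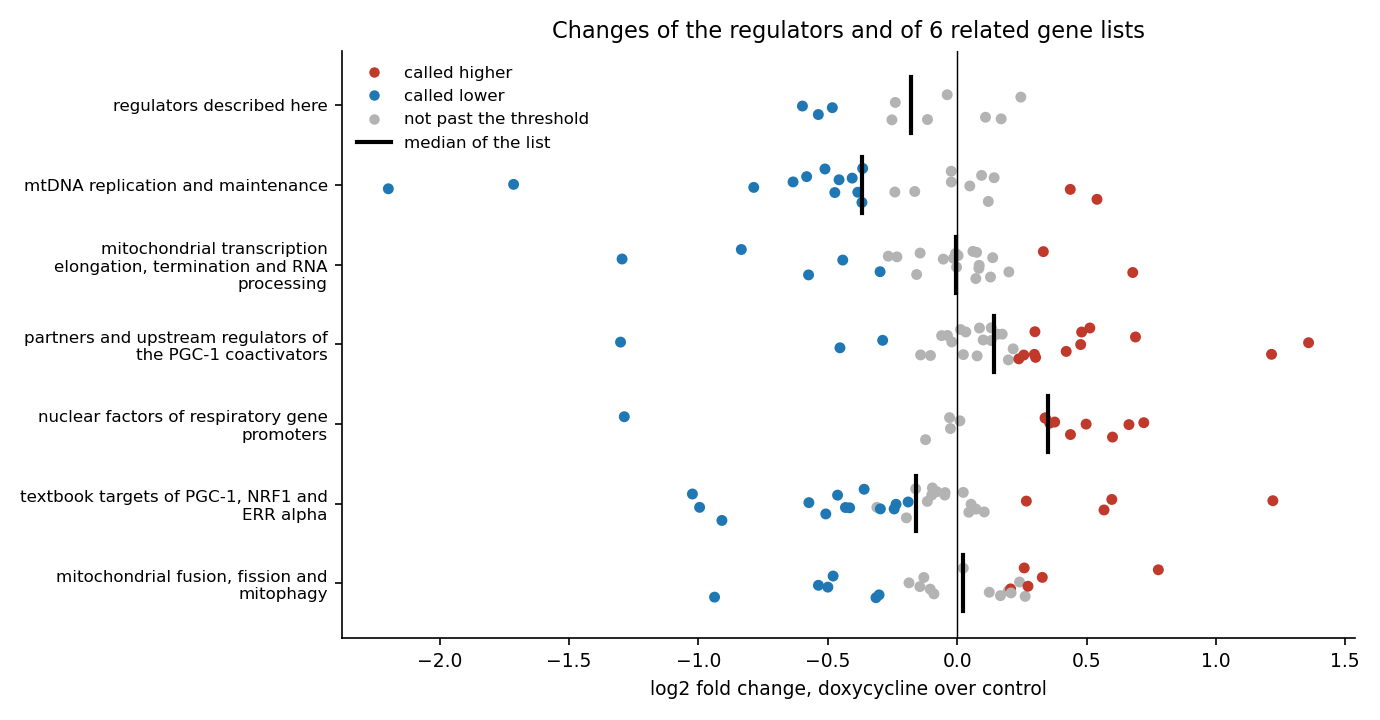
Log2 fold change of doxycycline over control for the 10 regulators (top) and for each measured gene of 6 related lists. Points are genes, red called higher, blue called lower and grey not past the threshold, and black bars are medians, which run from -0.37 for mitochondrial DNA maintenance to 0.35 for the nuclear factors.

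The arrays themselves were alike within groups. The 18569 values correlated at 0.990 to 0.996 among doxycycline arrays and 0.993 to 0.997 among control arrays, and at most at 0.976 across groups, and array medians lay between 5.02 and 5.10. Doxycycline array 1 was the lowest or highest of its group for 6 of the 10 regulators and for 56.6% of all probe sets, the most of the 5 doxycycline arrays. MYC was higher, at 6.68 ± 0.18 with doxycycline and 6.06 ± 0.12 in control (SD, n = 5 each), and whether its probe set also detects an Omomyc transcript is not known here. Of 8 measured melanocyte and melanoma markers, SOX10, MITF, S100B, S100A1 and ERBB3 were above the median of every array in both groups, while the pigmentation genes PMEL, MLANA and TYR lay under the first quartile in both. Of 15 measured markers of keratinocytes, fibroblasts, endothelium and leukocytes, CD68, LYZ and PDGFRB were above the median in both groups, and PTPRC, CD3E, PECAM1, CDH5, KRT14, KRT1 and DSG3 lay under the first quartile in both. The summed fibroblast markers were 7.28 to 7.50 log2 units with doxycycline and 6.54 to 6.86 in control, and the summed leukocyte markers 9.59 to 10.03 and 8.95 to 9.40. These sums add unlogged signal, so bright genes weigh most. Of the leukocyte markers LYZ alone was called higher (1.44), while CD68 (0.21), PTPRC (-0.08) and CD3E (-0.08) were not called. PDGFRB (1.16), DCN (0.40) and COL1A1 (0.32) were called higher among the fibroblast markers, and COL1A2 (0.04) was not called. Among melanocyte and melanoma markers, MITF (1.21), S100A1 (0.86), ERBB3 (0.36), S100B (0.26) and TYR (0.23) were called higher. SOX10 (0.19), MLANA (0.17) and PMEL (-0.10) were not called. KRT5 (0.39) was the keratinocyte marker called higher. Whether the sums reflect a change in cell types was not tested. The part of these markers in the results above was not tested.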

How the data were processed

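The authors deposited log2 expression values for 18569 probe sets on 10 arrays, made with RMA (background correction, quantile normalization and probe summary) per the submitters' processing notes. The RMA version is not given in the sources used here. Values ran from 1.14 to 12.9. Because RMA equalises the arrays, a change of total RNA per cell is not seen, and dim probe sets show compressed differences. Symbols came from the platform annotation (17511 probe sets with 1 symbol); of 162 genes in the related lists, 145 were measured. Where a gene had several probe sets (17 genes), the one with the highest mean stood for it.

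Groups came from the sample titles. Doxycycline was compared with control in limma 3.58.1 (lmFit, eBayes; R 4.3.3) in a model of group alone. Tests were two-sided, and p-values were adjusted by Benjamini-Hochberg across the whole table; the model was tested on simulated data. Pairs of regulators were compared by exact permutation. The text names all 10 regulators, up to 4 called genes per list by size of change (all of a direction with 3 or fewer calls), the 4 genes closest to the regulator with the largest called fall, and fixed marker genes; no regulator was called higher. The members and lists were chosen with earlier results of these data known. The motifs, the summary of ribosomal protein genes by symbol and the joint omission of 2 arrays were added after seeing the data. Alternatives were other spread models, array weights, filters on dim probe sets, rescaling, a fold threshold, omission of each array and the replicate number as a block. Precision is limited by 5 arrays per group. Promoters are RefSeq sequences (GRCh38.p14), read in Python 3.11.15 with pandas 2.3.3.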

Additional observations from a re-analysis of the deposited data

Results flagged for a closer look

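In 102 sets of 5 values (the regulators, the named genes and the pair differences, per group), 9 held an array whose gap to the nearest other exceeded 0.71 of the whole range; chance gives this in about 5% of sets. Of the regulators, PPARGC1B was at 2.94 on control array 3, against 3.54 to 3.73 on the other control arrays, and TFB1M was at 7.01 on control array 1, against 6.79 to 6.80. For the pairs, PPARGC1A minus PPARGC1B was 2.68 on control array 3, against 1.95 to 2.11, and TFAM minus TFB2M was 0.50 on control array 5, against 0.29 to 0.34. Without control array 3 the log2 fold change of PPARGC1B was -0.68 (limma, adjusted p = 9.51e-04).

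The other 5 were named genes of the related lists. BNIP3 was at 8.95 on doxycycline array 1, against 8.50 to 8.61 on the other doxycycline arrays. VDAC1 was at 8.25 on doxycycline array 4, against 8.02 to 8.05, and at 8.80 on control array 5, against 9.01 to 9.07. IDH3A was at 10.21 on control array 5, against 10.02 to 10.04, and SLC25A36 was at 7.81 on control array 4, against 7.62 to 7.66.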

How the results depend on the processing

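TFAM and TFB1M were called lower in 18 of 18 alternative fits, and PPARGC1B in 16 of the 17 that tested it, the exception being array weights. The filter at the 50th percentile left PPARGC1B out. The fold threshold of 0.5 is not among these fits, and TFAM, at -0.48, does not reach it. Of the other 7 regulators, ESRRA alone was called in an alternative, without doxycycline array 1. No regulator was called higher in any alternative, and 2 to 4 were called lower. The counts that moved by over 1.5 times did so chiefly with a log2 fold change of at least 0.5 added: 1859 probe sets higher and 1895 lower, mitochondrial DNA maintenance 1 higher and 6 lower, transcript processing 1 and 3, PGC-1 partners 4 and 1, nuclear factors 3 higher, textbook targets 5 lower, and fusion, fission and mitophagy 1 and 2, with fewer genes called by construction. Leaving out 1 array each gave 3 to 5 higher genes for fusion, fission and mitophagy (3 without control array 1, 2 or 5 or doxycycline array 3, 4 or 5) and 1 to 3 higher for transcript processing (1 without control array 3, and 1 without both control array 3 and doxycycline array 1, chosen after seeing the data); the cause was not tested. Same-numbered arrays did not deviate together (correlations of -0.44 to -0.01 over all probe sets, and 0 of 5 arrays correlated best with its own number). With the replicate number as a block the same number of regulators, 3, was called lower. Under this setting 0 of the 8 pair differences passed, and the paired permutation of 5 pairs gave the 3 called ones an adjusted p of 0.167. With only 5 pairs that permutation can give no p under 0.05, so this outcome was fixed in advance and decides nothing. The 3 called pairs passed under every other alternative run.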
